A study of Mus musculus with 8 samples.

Results

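Untreated single cells of 3 mouse enteroendocrine reporter lines were set against each other. Enteroendocrine cells are single cells of the gut lining that release hormones into the blood. The cells were chosen by place and depth, not by expression: wells of columns 1 to 6 on the 5 plates that carry all conditions, with at least 2000 transcripts outside spike-in and mitochondrial rows. This left 286 cells of the 1006 kept in the whole series. Of these, 84 came from the Tac1 line (68 on plate 1 and 16 on plate 2), 63 from the Gip line (1 plate) and 139 from the Gcg line (64 and 75 on its 2 plates). All were live reporter-positive cells sorted from intestinal organoids of strain C57BL/6 that had received no BMP4. Other columns of the plates received BMP4, a secreted morphogen, for 24 h or 4 days, and are not compared here. Their wells entered only 1 alternative fit over all conditions and the totals per kind of file. By the sample titles the Tac1 and Gip lines are Tac1-Cre and Gip-Cre, and the Gcg line is Gcg-Venus. A label switched on by Cre can stay in a cell that has stopped using the gene. Neither the age of the source animals nor the number of cultures is stated in the labels. The p-values therefore reflect how far plates of 1 line differ, which can be technical.

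Enteroendocrine cells fall into types by their products. Enterochromaffin cells make serotonin with the enzyme encoded by Tph1, pack it into granules rich in chromogranins, and often carry tachykinins such as substance P, the product of Tac1. L cells process proglucagon, encoded by Gcg, into GLP-1 and often add peptide YY, cholecystokinin or neurotensin. K cells make the incretin GIP, and D cells make somatostatin. The mix of hormones is known to change along the length of the gut and along the crypt-villus axis.

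The promoters of the 3 genes whose reporters defined the lines are shown because every comparison rests on them. The windows hold the 250 bases before each annotated start in RefSeq on GRCm38.p6, 5′ to 3′ on the gene's strand: chr6:7554811-7555060 on the plus strand for Tac1, chr11:96024295-96024544 on the plus strand for Gip and chr2:62483654-62483903 on the minus strand for Gcg. Capitals mark 3 motifs searched on both strands. The TATA box was searched as TATAAA. The motif of GATA factors was searched as AGATAA. The E-box of the kind bound by NEUROD1 was searched as CAGATG.
Tac1: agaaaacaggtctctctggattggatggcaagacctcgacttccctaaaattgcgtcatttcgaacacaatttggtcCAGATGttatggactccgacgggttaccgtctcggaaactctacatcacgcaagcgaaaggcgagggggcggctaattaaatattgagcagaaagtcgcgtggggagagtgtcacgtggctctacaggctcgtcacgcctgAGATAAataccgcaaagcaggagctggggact
Gip: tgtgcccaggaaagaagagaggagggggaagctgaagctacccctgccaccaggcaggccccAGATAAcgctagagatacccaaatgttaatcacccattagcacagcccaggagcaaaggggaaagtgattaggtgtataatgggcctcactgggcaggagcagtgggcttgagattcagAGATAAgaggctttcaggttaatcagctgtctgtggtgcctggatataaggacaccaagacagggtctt
Gcg: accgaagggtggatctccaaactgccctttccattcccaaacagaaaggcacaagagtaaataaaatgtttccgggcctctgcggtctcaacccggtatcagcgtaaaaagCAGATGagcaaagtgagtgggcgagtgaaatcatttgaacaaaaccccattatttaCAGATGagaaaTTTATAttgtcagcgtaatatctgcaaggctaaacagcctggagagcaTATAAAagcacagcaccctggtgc
The Tac1 window held 1 GATA motif and 1 E-box, and the Gip window 2 GATA motifs and no E-box. The Gcg window held 2 E-boxes and 2 TATA boxes (1 TATA box on the opposite strand) and no GATA motif. No motif overlapped another. Among 32851 RefSeq promoter windows of this length, 12.4% held the TATA box, 9.99% the GATA motif and 14.4% the E-box on either strand. A match describes letters only.

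The 5 plate sums of untreated cells ran from 105881 to 870263 transcripts, and the median cell held 3849 to 9334. On Tac1 plate 2 only 16.7% of 96 wells were kept, against 65.6 to 78.1% on the other 4 plates. Levels are in CPM, a gene's transcripts scaled to a fixed total over all cells kept on a plate. Where a line has 2 values, they are those of its plates 1 and 2. In such sums fewer cells of a type and less RNA per cell cannot be told apart. Differences are on the log2 scale with the standard error of the fit. Every adjusted p is from edgeR's quasi-likelihood test over 9168 genes with Benjamini-Hochberg adjustment, where a gene passed under 0.05. The single Gip plate is assumed to vary like the plates of the other lines. Both Tac1 plates come in another kind of file than the Gip and Gcg plates (values with 2 decimals against full precision, and mitochondrial genes listed only in the first kind). Reporter line and kind of file therefore cannot be told apart in the comparisons with the Tac1 line, while Gip against Gcg lies within 1 kind. The 5 plates use the same 384 well barcodes by design, so shared barcodes carry no information on shared cells.

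The sort used the 3 reporter genes, so their levels check the labels and are no finding. Tac1 stood at 2568 and 3175 CPM in Tac1, against 42.2 in Gip and 24.6 and 29.7 in Gcg. Gip stood at 15601 and 317 CPM on the Tac1 plates, 151809 CPM on the Gip plate, and 13759 and 4396 CPM on the Gcg plates. Gcg stood at 358 and 0 CPM on the Tac1 plates and 7.34 CPM on the Gip plate, against 42919 and 77634 CPM on the Gcg plates. Each gene was highest in its own line. Nearly all Gip outside the Gip line sat in few cells: 5 cells held 91.0% of it on Tac1 plate 1, 99.1% on Gcg plate 1 and 95.7% on Gcg plate 2. With every cell thinned to 2000 transcripts, at least 5 Tac1 transcripts were found in 31 of 68 and 6 of 16 Tac1-line cells (45.6% and 37.5%; Wilson 95% intervals 34.3 to 57.3% and 18.5 to 61.4%). At least 5 Gip transcripts were found in 63 of 63 cells of the Gip plate. At least 5 Gcg transcripts were found in 44 of 64 and 74 of 75 cells of the Gcg plates (68.8% and 98.7%; 56.6 to 78.8% and 92.8 to 99.8%). In cells of the other lines the shares at this cutoff were at most 1.56% for Tac1, 14.7% for Gip and 1.47% for Gcg.

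Across all genes, 1508 passed between the Tac1 and Gcg lines (702 higher and 806 lower in Tac1, 16.4% of those tested). Between the Tac1 and Gip lines 641 passed (343 higher and 298 lower in Tac1, 6.99%). Between the Gip and Gcg lines 475 passed (189 higher and 286 lower in Gip, 5.18%). A test of any difference among the 3 lines called 1573 genes (17.2%). Single plates moved these counts. Tac1 against Gcg gave 796 without Gcg plate 1 and 927 without Tac1 plate 1, Gip against Gcg gave 241 without Gcg plate 1 and 745 without Tac1 plate 2, and the test of any difference gave 989 at its lowest, without Gcg plate 1. The median log2 difference over all genes was -0.09 for Tac1 minus Gcg, -0.05 for Tac1 minus Gip and -0.05 for Gip minus Gcg.

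Of 12 hormone genes tested, 3 were higher and 6 lower in the Tac1 line than in the Gcg line, and 3 higher and 2 lower than in the Gip line. In the Gip line 2 were higher and 5 lower than in the Gcg line. Of these calls 9 of 9, 4 of 5 and 7 of 7 held in every fit without 1 plate that tested them. Over all genes 7.66, 3.74 and 2.06% were higher and 8.79, 3.25 and 3.12% lower in these comparisons, the background for this and the lists that follow. The list's median differences were -1.26, -0.93 and -2.20 in that order. These counts include the reporter genes. The 2 higher in the Gip than in the Gcg line were Sst and Iapp. The Gip gene itself was tested and passed in no comparison, while Tac1 and Gcg were among the calls.

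Besides Gcg, the peptide genes Cck, Nts, Pyy and Sct were highest on both Gcg plates. Cck, the cholecystokinin gene, stood at 1100 and 0 CPM on the Tac1 plates and 714 CPM on the Gip plate, against 20039 and 30487 CPM on the Gcg plates, with no overlap between the Gcg line and the others. Its difference from the Gcg line was -5.38 ± 1.12 (adjusted p = 9.4e-04) for Tac1 and -5.08 ± 1.50 (adjusted p = 0.045) for Gip. With DESeq2 the adjusted p was 0.28 for Tac1 and 1.0 for Gip, and with RLE factors 0.077 for Gip (1.3e-34 to 0.28 and 4.9e-10 to 1.0 over the alternatives). Nts, which encodes neurotensin, had no transcript on either Tac1 plate and 5.50 CPM on the Gip plate, against 13566 and 9186 CPM on the Gcg plates. Against a floor of 3 transcripts over the line it was at least 2193-fold lower in the Tac1 than in the Gcg line (adjusted p = 4.2e-09), and the Gip line differed from the Gcg line by -10.91 ± 1.31 (adjusted p = 3.1e-06). Pyy, the peptide YY gene, stood at 8.67 and 0 CPM in Tac1 and 66.0 in Gip, against 4062 and 5072 in Gcg. Its differences from the Gcg line were -9.29 ± 0.74 (adjusted p = 6.9e-10) for Tac1 and -6.05 ± 0.77 (adjusted p = 5.4e-06) for Gip. Pyy was also lower in the Tac1 than in the Gip line (-3.24 ± 0.89, adjusted p = 0.023). Sct, the secretin gene, stood at 323 and 374 CPM in Tac1 and 303 in Gip, against 1519 and 2053 in Gcg. It differed from the Gcg line by -2.36 ± 0.41 (adjusted p = 1.2e-04) in Tac1 and by -2.50 ± 0.53 (adjusted p = 0.0030) in Gip, and between the Tac1 and Gip lines by 0.13 ± 0.49, which did not pass. Ghrl, the ghrelin gene, stood at 445 and 0 CPM on the Tac1 plates against 1912 and 1122 CPM on the Gcg plates (-2.52 ± 0.64, adjusted p = 0.0062), and at 765 CPM on the Gip plate. With DESeq2 the adjusted p of Ghrl for Tac1 minus Gcg was 0.71. Cck, Nts, Pyy and Sct thus separated both Gcg plates from the other 3 plates, and Ghrl separated them from the Tac1 plates. Without 1 plate, 1 of the adjusted p-values printed here exceeded 0.05: Pyy (Tac1 minus Gip) gave 0.0504 without Tac1 plate 1, and 6.9e-04 to 0.28 over 16 alternatives.

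Some genes lower in the Tac1 line were at or near 0 on its plate 2 and present on plate 1. Their differences grew without plate 1, for example to -16.72 for Cck, -14.26 for Pyy and -12.69 for Ghrl against the Gcg line. These genes had no transcript on plate 2, so the size of such values is not bounded. Hhex, Meg3 and Cnr1, higher in Tac1 than in Gcg with all plates, changed sign instead, also from 0 transcripts on plate 2. Tac1 plate 2 rests on 16 cells. Over the genes chosen to be named, leaving out Tac1 plate 1 moved 30 of 98 called Tac1 minus Gcg differences and 26 of 68 Tac1 minus Gip differences by more than 1.5-fold. Leaving out Gcg plate 1 or 2 did so for 33 and 23 of 100 Tac1 minus Gcg and for 22 and 20 of 60 Gip minus Gcg differences.

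The Tac1 line in turn carried 2 peptides at or near 0 in the others. Ucn3, which encodes urocortin 3, stood at 518 and 1065 CPM in Tac1, against 0 in Gip and 5.86 and 16.4 in Gcg. It was higher by 6.12 ± 0.49 than in the Gcg line (adjusted p = 7.5e-10) and at least 112-fold higher than in the Gip line (adjusted p = 1.2e-07). Cartpt, the precursor of a neuropeptide regulated by cocaine and amphetamine in brain, stood at 73.7 and 28.8 CPM in Tac1, against 0 in Gip and 0 and 1.49 in Gcg. It was 6.05 ± 1.04 above the Gcg line (adjusted p = 9.7e-05) and at least 11.9-fold above the Gip line (adjusted p = 0.0063). On Tac1 plate 1, 5 cells held 91.2% of Cartpt. Insl5, a peptide of distal L cells, had 17.6 and 4.46 CPM on the Gcg plates and none elsewhere, and was too low to test.

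**Figure D1:**
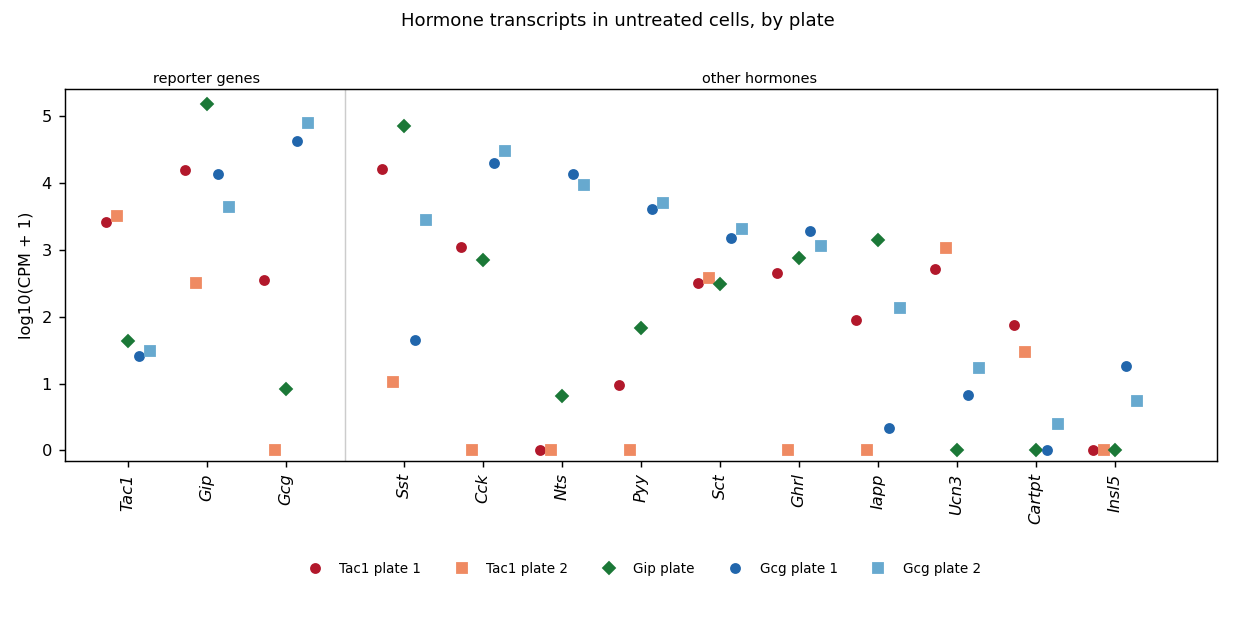
Level of 13 hormone genes in untreated cells, as log10(CPM + 1) on the vertical axis, 1 symbol per plate (Tac1 plates red, Gip plate green, Gcg plates blue; a symbol at 0 is a gene with no transcript). Cck, Nts and Pyy are highest on both Gcg plates, Ucn3 and Cartpt on both Tac1 plates, and Sst and Iapp on the Gip plate.

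Within cells, the lines differed in which hormone led. A cell's leading hormone was the one with the most transcripts among 13, if at least 5 of 2000. These shares are given as a description, without a test. Of the cells of Tac1 plate 1, Sst led in 32 of 68, Tac1 in 20, Gip in 4, Ucn3 in 2 and Sct in 1, and 9 had no leader. At 20 transcripts Sst led in 9 cells and Tac1 in 2, and wells of this plate below the minimum, pooled, held Sst at 12349 CPM. The source of the low Sst in most of these 32 cells was not tested, and it is not read as expression. On Tac1 plate 2, Tac1 led in 5 of 16 and Ucn3 in 3, and 8 had none. On the Gip plate Gip led in 52 of 63 and Sst in 11. On Gcg plate 1 Gcg led in 29 of 64, Nts in 14, Cck in 5, Gip in 4 and Sct in 1, and 11 had none. On Gcg plate 2 Gcg led in 55 of 75, Nts in 7, Cck in 6, Gip in 2, Sst in 2, and Pyy and Tac1 in 1 each.

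**Figure D2:**
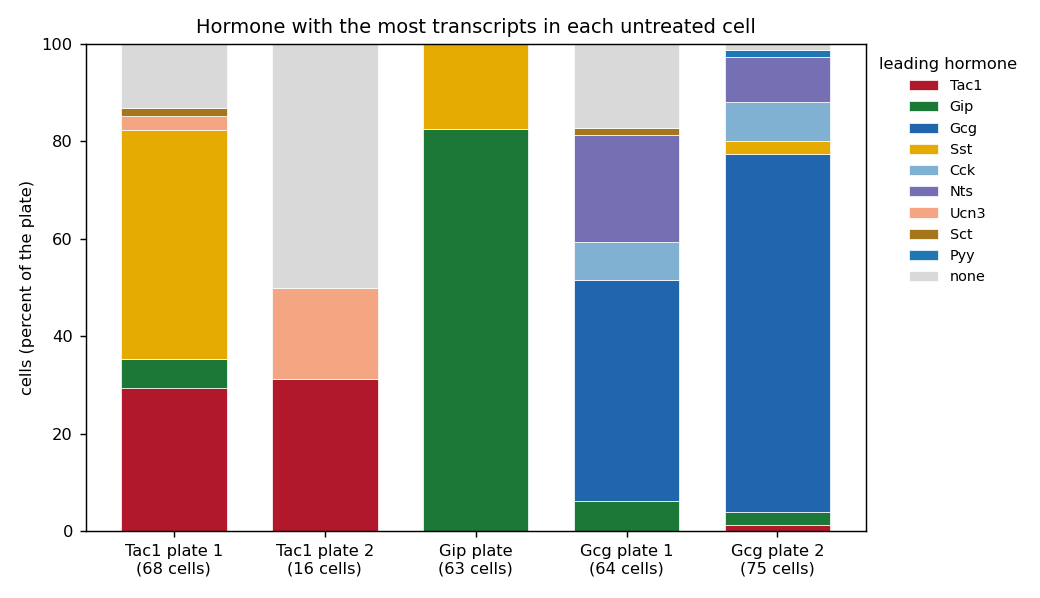
Share of untreated cells of each plate (vertical axis, percent) by the hormone with the most transcripts per cell after thinning to 2000, grey where no hormone reached 5. Gip led in 52 of 63 cells of the Gip plate and Gcg in 55 of 75 cells of Gcg plate 2, while 8 of 16 cells of Tac1 plate 2 had no leading hormone. Sst led in 32 of 68 cells of Tac1 plate 1 at this cutoff and in 9 at a cutoff of 20.

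At 5 of 2000 transcripts, several hormones were often found in the same wells of the Gcg line. Among Gcg-containing cells (at least 5 transcripts), 37 of 44 on plate 1 and 66 of 74 on plate 2 also held at least 5 Cck transcripts, 19 and 29 held Pyy, and 15 and 18 held Nts. Cells with 3 of the 13 hormones at this level numbered 5 of 68 and 0 of 16 on the Tac1 plates, 9 of 63 on the Gip plate, and 15 of 64 and 24 of 75 on the Gcg plates. Cells with 4 numbered 1 and 0 on the Tac1 plates, 2 on the Gip plate, and 16 and 15 on the Gcg plates. Wells of the Gcg plates below the minimum held Gcg at 16620.4 and 39890 CPM, Cck at 9647 and 27143 CPM, Pyy at 2680.2 and 10268 CPM and Nts at 23554 and 5778 CPM. Free RNA of these hormones, and of Sst on Tac1 plate 1 and the Gip plate, could add to such counts, which was not tested. The counts are not read as hormones made together.

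The enterochromaffin programme was highest in the Tac1 line. Of 9 genes of serotonin synthesis, storage and breakdown, all tested, 6 were higher and 2 lower in the Tac1 than in the Gcg line, and 4 were higher and none lower than in the Gip line. In the Gip line none was higher and 3 were lower than in the Gcg line. The medians were 2.18, 1.59 and 0.00. Of these calls 6 of 8, 4 of 4 and 2 of 3 held in every fit without 1 plate that tested them. Tph1, the rate-limiting enzyme of serotonin synthesis in the gut, stood at 1505 and 892 CPM in Tac1, against 0 in Gip and 35.1 and 19.3 in Gcg. It exceeded the Gcg line by 5.45 ± 0.48 (adjusted p = 2.7e-09) and was at least 253-fold above the Gip line (adjusted p = 8.8e-08). The low Tph1 of the Gcg line was itself at least 5.12-fold above that of the Gip line (adjusted p = 0.011). That call was lost with DESeq2 (adjusted p = 0.13), limma-voom (0.16) and limma-voom over all conditions (0.14). After thinning, at least 5 Tph1 transcripts were found in 15 of 68 and 0 of 16 cells of the Tac1 plates, in none of the Gip plate and in 1 cell of each Gcg plate. Slc18a2, the vesicular monoamine transporter VMAT2, stood at 184 and 307 CPM in Tac1, against 1.83 in Gip and 1.17 and 0 in Gcg, a difference of 8.02 ± 0.69 (adjusted p = 1.8e-09) from the Gcg line and of 6.76 ± 0.86 (adjusted p = 7.2e-06) from the Gip line. Its relative Slc18a1, VMAT1, was present in all lines, at 308 and 221 CPM in Tac1, 53.2 in Gip and 76.1 and 146 in Gcg. It differed by 1.34 ± 0.36 (adjusted p = 0.0099) from the Gcg line and 2.31 ± 0.50 (adjusted p = 0.0036) from the Gip line. Ddc, which completes serotonin synthesis, stood at 2954 and 2513 CPM in Tac1, 1046 in Gip and 517 and 618 in Gcg, and exceeded the Gcg line by 2.27 ± 0.43 (adjusted p = 3.5e-04). Gch1 and Qdpr, which make and recycle the cofactor of TPH1, were higher in the Tac1 than in the Gcg line by 2.03 ± 0.36 (adjusted p = 1.4e-04) and 2.18 ± 0.38 (adjusted p = 1.2e-04), and Qdpr also exceeded the Gip line (2.18 ± 0.50, adjusted p = 0.0055).  Leaving out 1 plate ended 1 of the calls named here by adjusted p: Slc18a1 (Tac1 minus Gcg) gave 0.16 without Gcg plate 1 and 0.18 without Tac1 plate 1, and 2.6e-05 to 0.77 over 18 alternatives.

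The 2 serotonin genes that were lower act after release. Slc6a4, the serotonin reuptake transporter, stood at 4.34 and 0 CPM in Tac1 and 5.50 in Gip, against 41.0 and 62.4 in Gcg. It differed from the Gcg line by -3.75 ± 0.84 (adjusted p = 0.0021) in Tac1 and -3.11 ± 0.84 (adjusted p = 0.024) in Gip. Maoa, the monoamine oxidase that degrades serotonin, stood at 45.5 and 115 CPM in Tac1 and 23.9 in Gip, against 1071 and 389 in Gcg. It differed from the Gcg line by -3.47 ± 0.51 (adjusted p = 1.3e-05) in Tac1 and -4.90 ± 0.71 (adjusted p = 2.9e-05) in Gip, but by 0.18 for Tac1 among granule-rich cells. Granule-rich cells held more transcripts of granins and granule proteins than of the enterocyte, goblet and Paneth lists together. They were 67 of 68 and 16 of 16 Tac1 cells, but only 8 of 64 and 16 of 75 Gcg cells. The 0.18 thus rests on few Gcg cells. The summed enterocyte list was lowest on the Tac1 plates too, at 1878 and 1161 CPM, against 10639 CPM on the Gip plate and 30280 and 22678 CPM on the Gcg plates. Its part in these 2 differences was not tested. Leaving out 1 plate ended the following named calls, with these adjusted p-values. Slc6a4 (Tac1 minus Gcg) gave 0.10 without Gcg plate 2, and 1.6e-04 to 0.10 over 16 alternatives. Slc6a4 (Gip minus Gcg) gave 0.18 without Gcg plate 1 and 0.43 without Gcg plate 2, and 0.0042 to 0.57 over 14 alternatives.

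Granule proteins followed the serotonin genes. Of 10 granins and granule proteins, 7 were higher and 2 lower in the Tac1 than in the Gcg line, 3 higher and 1 lower than in the Gip line, and 2 higher and none lower in the Gip than in the Gcg line (medians 1.61, 0.53 and 0.49). Of these calls 6 of 9, 4 of 4 and 1 of 2 held in every fit without 1 plate that tested them. Chga, chromogranin A, stood at 22214 and 25057 CPM in Tac1, against 227 in Gip and 463 and 699 in Gcg. It differed by 5.35 ± 0.81 (adjusted p = 2.0e-05) from the Gcg line and by 6.63 ± 1.20 (adjusted p = 5.7e-04) from the Gip line. At least 5 of 2000 Chga transcripts were found in 65 of 68 and 15 of 16 cells of the Tac1 plates, 0 of 63 of the Gip plate, and 5 of 64 and 2 of 75 of the Gcg plates. Chgb, chromogranin B, stood at 57118 and 55746 CPM in Tac1, against 2715 in Gip and 1506 and 4134 in Gcg, a difference of 4.34 ± 0.99 (adjusted p = 0.0024) from the Gcg line and of 4.32 ± 1.35 (adjusted p = 0.0497) from the Gip line. These calls passed in 17 of 18 and 14 of 16 alternatives (adjusted p 4.2e-22 to 0.12 and 1.2e-13 to 0.13). Chgb took more transcripts than any hormone gene on both Tac1 plates. Scg2, secretogranin II, went the other way, at 173 and 9.59 CPM in Tac1, 1532 in Gip and 1197 and 2032 in Gcg, with differences of -3.76 ± 0.57 (adjusted p = 1.8e-05) from the Gcg line and -3.76 ± 0.62 (adjusted p = 1.8e-04) from the Gip line. Ptprn, a dense-core vesicle membrane protein also known as IA-2, stood at 857 and 1161 CPM in Tac1, 277 in Gip and 16.4 and 35.7 in Gcg. It differed in all 3 comparisons, 5.27 ± 0.45 (adjusted p = 1.8e-09) for Tac1 minus Gcg, 1.78 ± 0.48 (adjusted p = 0.020) for Tac1 minus Gip and 3.49 ± 0.48 (adjusted p = 1.4e-05) for Gip minus Gcg. The summed granule list held a median of 159 and 135 of 2000 transcripts per cell on the Tac1 plates, 12 on the Gip plate, and 10 and 13 on the Gcg plates. The summed 13 hormones ran opposite, with medians of 17.5 and 6.5 on the Tac1 plates, 412 on the Gip plate, and 224 and 272 on the Gcg plates. Wells of the Tac1 plates below the minimum held Chga at 16663 and 16534 CPM and Chgb at 38072 and 33359 CPM, so transcripts of both genes were also present in those wells.

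**Figure D3:**
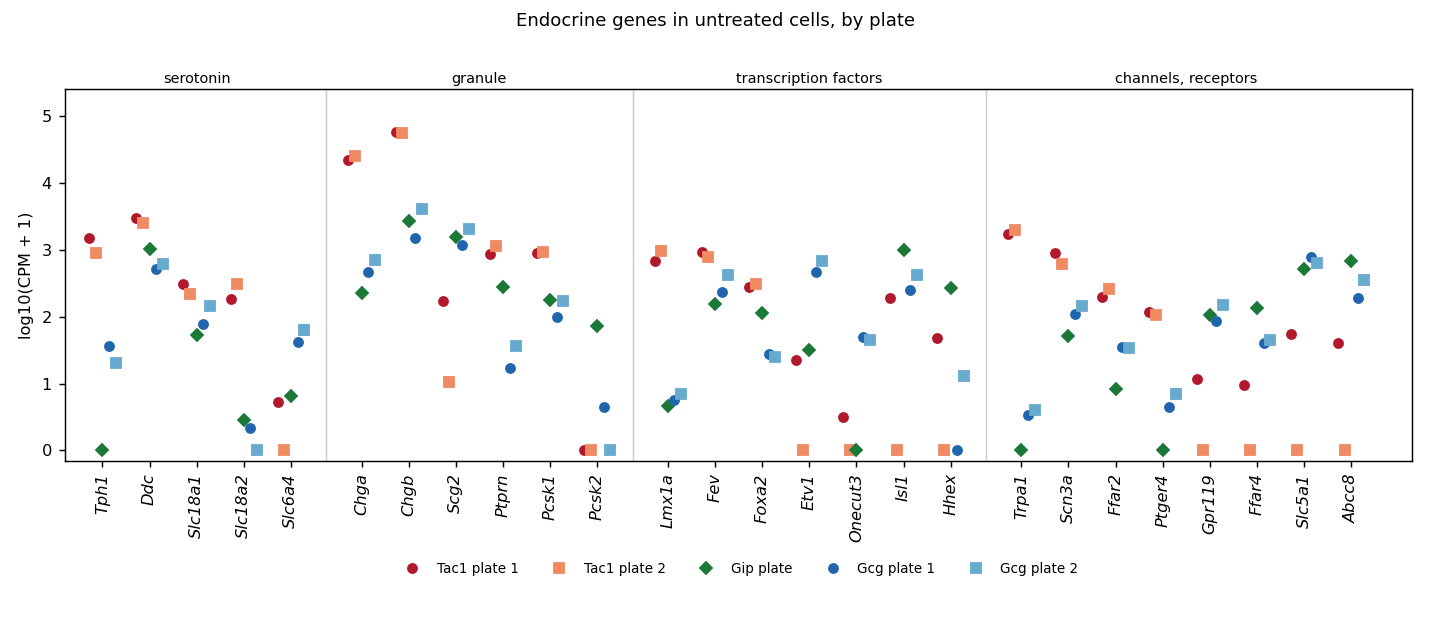
Level of serotonin, granule, transcription factor, channel and receptor genes by plate in untreated cells, as log10(CPM + 1), 1 symbol per plate, Tac1 left of Gip and Gcg. Tph1, Slc18a2, Chga and Lmx1a are higher on both Tac1 plates than on the other 3, and Abcc8 is higher on the Gip and Gcg plates.

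Several genes with no place in those lists were among the largest differences of the Tac1 line. Reg4, a secreted lectin-like protein known from enteroendocrine cells, stood at 27796 and 21220.1 CPM in Tac1, against 0 in Gip and 24.6 and 186 in Gcg. It differed by 7.92 ± 1.03 (adjusted p = 2.0e-06) from the Gcg line and was at least 4829.9-fold above the Gip line (adjusted p = 2.5e-05). The Gip line was at least 17.4-fold below the Gcg line (adjusted p = 0.030). Reg4 reached 5 of 2000 transcripts in 61 of 68 and 13 of 16 cells of the Tac1 plates, in no cell of the Gip plate or Gcg plate 1, and in 2 of 75 of Gcg plate 2. Reg4 in Tac1-plate wells below the minimum was 26621 and 23514 CPM, close to the kept cells. Trpa1, an irritant-gated ion channel of enterochromaffin cells, stood at 1746 and 2015 CPM in Tac1, against 0 in Gip and 2.34 and 2.97 in Gcg, 9.34 ± 0.60 (adjusted p = 3.4e-11) above the Gcg line and at least 326-fold above the Gip line (adjusted p = 6.5e-08). Afp, the alpha-fetoprotein gene, stood at 10713 and 14908 CPM in Tac1, against 0 in Gip and 2.34 and 0 in Gcg, 13.00 ± 1.07 (adjusted p = 1.0e-09) above the Gcg line and at least 2087-fold above the Gip line (adjusted p = 1.2e-06). It reached 5 of 2000 transcripts in 32 of 68 and 11 of 16 Tac1-line cells. Alb, the albumin gene of the same family, stood at 99.8 and 729 CPM in Tac1, against 0 in Gip and 0 and 0 in Gcg, at least 109.8-fold above the Gcg line (adjusted p = 6.0e-08) and at least 39.2-fold above the Gip line (adjusted p = 6.2e-05). The Alb level differed between the Tac1 plates, where 5 cells held 67.4% of it on plate 1 and 98.7% on plate 2. For Chgb such shares were 27.4 and 79.1%, and for Reg4 31.5 and 81.0%, so few cells held most transcripts of plate 2 for these genes too. With DESeq2 the Alb calls gave adjusted p = 0.19 and 0.60 (2.0e-36 to 0.19 and 2.3e-17 to 0.60 over the alternatives). Enpp2, which encodes the lysophospholipase autotaxin, stood at 740 and 892 CPM on the Tac1 plates and had no transcript on the other 3, at least 391-fold above the Gcg line (adjusted p = 3.4e-11) and at least 139-fold above the Gip line (adjusted p = 6.5e-08). Reg4, Trpa1, Afp and Enpp2 were each high on both Tac1 plates. No overlap between the plates of 2 lines was a condition for naming such genes, so it adds no support. Further genes named by the same rule follow. Trpc7, a cation channel, stood at 102 and 144 CPM in Tac1, against 0 in Gip and 0 and 0 in Gcg. The phosphatase gene Dusp2 stood at 1106 and 1871 CPM in Tac1, against 0 in Gip and 4.69 and 1.49 in Gcg. The surface antigen gene Tpbg had 946 and 998 CPM in Tac1, against 0 in Gip and 3.51 and 0 in Gcg, and Rpp25, an RNase P subunit, had 499 and 633 CPM in Tac1, against 0 in Gip and 2.34 and 4.46 in Gcg. Gpx3, an extracellular glutathione peroxidase, was shared by the Tac1 and Gip lines, at 1414 and 1544 CPM in Tac1, 596 in Gip and 0 and 4.46 in Gcg. It was higher than in the Gcg line by 9.36 ± 0.66 (adjusted p = 7.6e-11) in Tac1 and by 8.12 ± 0.68 (adjusted p = 1.7e-08) in Gip. Leaving out 1 plate ended 1 of the calls named here by adjusted p: Reg4 (Gip minus Gcg) gave 0.18 without Gcg plate 2, and 8.4e-07 to 0.47 over 16 alternatives.

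Prohormone processing and exocytosis genes differed in single members. Of 6 processing genes tested, 1 was higher and none lower in the Tac1 than in the Gcg line, 1 higher and 2 lower than in the Gip line, and 1 higher and none lower in the Gip than in the Gcg line (medians -0.29, -0.77 and 0.69). Of these calls 1 of 1, 1 of 3 and 1 of 1 held in every fit without 1 plate that tested them. Pcsk1, the convertase that cuts proglucagon to GLP-1, stood at 906 and 921 CPM in Tac1, against 178 in Gip and 99.6 and 171 in Gcg. It differed by 2.77 ± 0.38 (adjusted p = 4.5e-06) from the Gcg line and by 2.30 ± 0.49 (adjusted p = 0.0030) from the Gip line. Both Tac1 plates were above the other 3. Pcsk2, the second convertase, stood at 0 and 0 CPM in Tac1, 71.5 in Gip and 3.51 and 0 in Gcg. The Tac1 line was at least 13.5-fold below the Gip line (adjusted p = 0.0031), and the Gip line 5.09 ± 0.95 (adjusted p = 8.8e-04) above the Gcg line. Cpe, carboxypeptidase E, stood at 1147 and 1055 CPM in Tac1, 3623 in Gip and 2147 and 3239 in Gcg. It differed between the Tac1 and Gip lines by -1.77 ± 0.55 (adjusted p = 0.047). Of 12 exocytosis genes, 4 were higher and 2 lower in the Tac1 than in the Gcg line, 1 higher and 2 lower than in the Gip line, and 1 was higher and none lower in the Gip than in the Gcg line (medians -0.32, -0.24 and 0.23). Of these calls 3 of 6, 3 of 3 and 0 of 1 held in every fit without 1 plate that tested them. Rab3c, a small GTPase of secretory vesicles, stood at 891 and 767 CPM in Tac1, against 9.17 in Gip and 11.7 and 19.3 in Gcg, with differences of 5.76 ± 0.44 (adjusted p = 3.7e-10) and 6.42 ± 0.66 (adjusted p = 2.4e-07). Secretagogin, encoded by Scgn, went the other way at 93.3 and 0 CPM in Tac1, 936 in Gip and 624 and 855 in Gcg, with differences of -3.47 ± 0.53 (adjusted p = 2.1e-05) from the Gcg line and -3.87 ± 0.58 (adjusted p = 6.1e-05) from the Gip line. Syt7, a calcium sensor of exocytosis, showed the same order at 91.1 and 0 CPM in Tac1, 435 in Gip and 261 and 312 in Gcg (-2.12 ± 0.49, adjusted p = 0.0025 and -2.78 ± 0.54, adjusted p = 0.0013). With DESeq2 no call of Scgn or Syt7 passed, nor did that of Pcsk2 for Gip minus Gcg. Calls named here that were lost without 1 plate follow, with the adjusted p for each. Pcsk2 (Tac1 minus Gip) gave 0.090 without Tac1 plate 1, and 2.6e-05 to 0.090 over 13 alternatives. Cpe (Tac1 minus Gip) gave 0.061 without Tac1 plate 1 and 0.056 without Tac1 plate 2, and 0.0021 to 0.061 over 16 alternatives.

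Transcription factors split the lines in both directions. Of 10 subtype factors tested, 4 were higher and 4 lower in the Tac1 than in the Gcg line, 2 higher and 2 lower than in the Gip line, and 2 higher and 2 lower in the Gip than in the Gcg line (medians -0.34, -0.74 and -0.74). Of these calls 4 of 8, 4 of 4 and 3 of 4 held in every fit without 1 plate that tested them. Lmx1a, a factor known for enterochromaffin cells, stood at 685 and 949.7 CPM in Tac1, against 3.67 in Gip and 4.69 and 5.95 in Gcg, with differences of 7.18 ± 0.49 (adjusted p = 4.9e-11) from the Gcg line and 7.63 ± 0.73 (adjusted p = 7.4e-08) from the Gip line. Fev, a factor of serotonin neurons, stood at 939 and 777 CPM in Tac1, 152 in Gip and 237 and 418 in Gcg. It was higher by 1.42 ± 0.37 (adjusted p = 0.0079) than in the Gcg line and by 2.45 ± 0.51 (adjusted p = 0.0026) than in the Gip line. Neither Tac1 plate overlapped the other lines in Lmx1a or Fev. Etv1, an ETS-domain factor, was highest in the Gcg line, at 21.7 and 0 CPM in Tac1 and 31.2 in Gip, against 465 and 689.8 in Gcg, with differences of -5.04 ± 0.52 (adjusted p = 5.3e-08) for Tac1 and -4.14 ± 0.58 (adjusted p = 2.0e-05) for Gip. Onecut3 had 2.17 and 0 CPM in Tac1 and 0 in Gip, against 48.0 and 44.6 in Gcg. It differed by -4.52 ± 1.00 (adjusted p = 0.0017) for Tac1 and was at least 8.45-fold lower in Gip (adjusted p = 0.0025). Hhex, a factor of D cells, was highest on the Gip plate, at 47.7 and 0 CPM in Tac1, 269.7 in Gip and 0 and 11.9 in Gcg. The Gip line exceeded the Gcg line by 5.65 ± 0.70 (adjusted p = 3.8e-06), and the Tac1 line differed from the Gip line by -2.95 ± 0.64 (adjusted p = 0.0037). Neither call passed with DESeq2. The difference of the Tac1 from the Gcg line, 2.70 ± 0.81 (adjusted p = 0.021), rested on Tac1 plate 1, without which it was -4.58. That value comes from 0 Hhex transcripts on Tac1 plate 2 and is not read as an opposite difference. Of the calls named here, leaving out 1 plate ended these, by adjusted p. Fev (Tac1 minus Gcg) gave 0.085 without Gcg plate 1 and 0.052 without Tac1 plate 1, and 0.0016 to 0.38 over 18 alternatives. Onecut3 (Tac1 minus Gcg) gave 0.11 without Gcg plate 1 and 0.059 without Tac1 plate 1, and 1.2e-04 to 0.11 over 17 alternatives. Onecut3 (Gip minus Gcg) gave 0.17 without Gcg plate 1, and 9.1e-06 to 0.51 over 15 alternatives. Hhex (Tac1 minus Gcg) gave 0.16 without Gcg plate 1 and 0.60 without Tac1 plate 1, and 1.4e-05 to 0.98 over 16 alternatives.

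Pan-endocrine factors differed less in number. Of 13 tested, 4 were higher and none lower in the Tac1 than in the Gcg line, none higher and 2 lower than in the Gip line, and 3 higher and none lower in the Gip than in the Gcg line (medians 0.83, -0.13 and 1.02). Of these calls 2 of 4, 2 of 2 and 3 of 3 held in every fit without 1 plate that tested them. Foxa2 stood at 273 and 307 CPM in Tac1 and 114 in Gip, against 26.9 and 23.8 in Gcg, and was higher than in the Gcg line by 3.48 ± 0.38 (adjusted p = 1.0e-07) in Tac1 and by 2.20 ± 0.43 (adjusted p = 0.0013) in Gip. Nkx2-2, a homeobox factor required for several endocrine types, stood at 616 and 854 CPM in Tac1, 284 in Gip and 119 and 177 in Gcg, and differed from the Gcg line by 2.29 ± 0.37 (adjusted p = 4.1e-05) in Tac1. Rfx6, needed for Gip expression among others, stood at 438 and 326 CPM in Tac1, 925 in Gip and 163 and 213 in Gcg. It was highest on the Gip plate, 2.36 ± 0.41 (adjusted p = 3.4e-04) above the Gcg line, and differed by 1.07 ± 0.37 (adjusted p = 0.045) between Tac1 and Gcg. Isl1 stood at 191 and 0 CPM in Tac1, 1005 in Gip and 251 and 422 in Gcg, and Pax6 at 245 and 221 CPM in Tac1, 879 in Gip and 293 and 480.2 in Gcg. These homeobox factors differed between the Tac1 and Gip lines by -3.04 ± 0.60 (adjusted p = 0.0015) for Isl1 and -1.95 ± 0.43 (adjusted p = 0.0043) for Pax6. With DESeq2 the Isl1 call did not pass, while that of Pax6 did. Neurod1 stood at 659 and 691 CPM in Tac1, 675 in Gip and 935 and 1519 in Gcg, and passed in no comparison. Without 1 plate, 1 of the adjusted p-values printed here exceeded 0.05: Rfx6 (Tac1 minus Gcg) gave 0.19 without Gcg plate 1 and 0.063 without Gcg plate 2 and 0.23 without Tac1 plate 1, and 0.0098 to 0.97 over 18 alternatives.

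Of receptor and transporter genes for nutrients and hormones, more were lower than higher in the Tac1 line. Of 24 on the list, 11 were abundant enough to test. Of these 2 were higher and 7 lower in the Tac1 than in the Gcg line, 2 higher and 6 lower than in the Gip line, and 2 higher and none lower in the Gip than in the Gcg line. Their medians were -2.53, -3.61 and -0.38, or -1.89, -3.16 and -0.06 with genes at 0 set to their bound. Of these calls 6 of 9, 7 of 8 and 1 of 2 held in every fit without 1 plate that tested them. Slc5a1, the intestinal glucose transporter SGLT1, stood at 54.2 and 0 CPM in Tac1, 525 in Gip and 780.1 and 627 in Gcg, with differences of -4.12 ± 0.52 (adjusted p = 1.3e-06) from the Gcg line and -3.74 ± 0.57 (adjusted p = 6.7e-05) from the Gip line. Gpr119, a receptor for lipid amides, stood at 10.8 and 0 CPM in Tac1, 106 in Gip and 85.5 and 147 in Gcg (-3.67 ± 0.61, adjusted p = 7.1e-05 from the Gcg and -3.61 ± 0.68, adjusted p = 8.9e-04 from the Gip line). Ffar4, a long-chain fatty acid receptor, stood at 8.67 and 0 CPM in Tac1, 136 in Gip and 39.8 and 44.6 in Gcg. It differed by -2.53 ± 0.69 (adjusted p = 0.011) from Gcg, by -4.27 ± 0.68 (adjusted p = 1.3e-04) from Gip and, for Gip minus Gcg, by 1.74 ± 0.46 (adjusted p = 0.022). These 3 sensors of sugar and fat were at 0 on Tac1 plate 2. Ffar2, a receptor for short-chain fatty acids, had the opposite pattern, at 199.5 and 259 CPM in Tac1, against 7.34 in Gip and 34.0 and 32.7 in Gcg, with differences of 2.73 ± 0.38 (adjusted p = 6.5e-06) and 4.83 ± 0.65 (adjusted p = 1.4e-05). Its relative Ffar3 had no transcript on the Tac1 plates, 18.3 CPM on the Gip plate and 51.5 and 95.1 CPM on the Gcg plates. It was at least 13.3-fold below the Gcg line (adjusted p = 3.7e-05) and at least 3.46-fold below the Gip line (adjusted p = 0.035). The prostaglandin receptors also parted. Ptger4 stood at 117 and 106 CPM in Tac1, against 0 in Gip and 3.51 and 5.95 in Gcg (4.56 ± 0.57, adjusted p = 9.7e-07 from the Gcg line, and at least 20.9-fold above the Gip line, adjusted p = 5.0e-05). Ptger3 stood at 6.51 and 0 CPM in Tac1, 138 in Gip and 12.9 and 25.3 in Gcg, and was highest on the Gip plate (-4.68 ± 0.73, adjusted p = 1.0e-04 for Tac1 minus Gip and 2.93 ± 0.50, adjusted p = 2.7e-04 for Gip minus Gcg). Named calls that did not hold without 1 plate follow, with the adjusted p. Ffar4 (Gip minus Gcg) gave 0.25 without Gcg plate 1 and 0.14 without Gcg plate 2, and 0.0024 to 0.90 over 16 alternatives. Ffar3 (Tac1 minus Gip) gave 0.076 without Gcg plate 2 and 0.26 without Tac1 plate 1, and 0.016 to 0.50 over 15 alternatives.

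Ion channel genes followed. Of 10 tested of 14, 3 were higher and 3 lower in the Tac1 than in the Gcg line, 2 higher and 3 lower than in the Gip line, and 2 higher and none lower in the Gip than in the Gcg line (medians 0.36, 0.14 and 0.38, the last 0.97 with genes at 0 set to their bound). Of these calls 3 of 6, 5 of 5 and 0 of 2 held in every fit without 1 plate that tested them. Scn3a, a voltage-gated sodium channel, stood at 896 and 624 CPM in Tac1, against 51.4 in Gip and 110.1 and 146 in Gcg, with differences of 2.61 ± 0.37 (adjusted p = 7.8e-06) and 3.86 ± 0.55 (adjusted p = 3.1e-05). Abcc8, the sulfonylurea receptor of the ATP-sensitive potassium channel, stood at 39.0 and 0 CPM in Tac1, 681 in Gip and 187 and 351 in Gcg, with differences of -3.13 ± 0.52 (adjusted p = 6.7e-05) and -4.55 ± 0.56 (adjusted p = 4.4e-06). Its partner Kcnj11 stood at 4.34 and 0 CPM in Tac1, 105 in Gip and 26.9 and 37.2 in Gcg. Its differences were -3.06 ± 0.83 (adjusted p = 0.010) and -4.83 ± 0.79 (adjusted p = 1.7e-04). Both subunits of that channel were lower in the Tac1 line than in each other line. Trpa1 and Cacna1h were the other channels higher than in the Gcg line, and Cacna1c the other one lower. Calls named here that were lost without 1 plate follow, with the adjusted p for each. Kcnj11 (Tac1 minus Gcg) gave 0.052 without Gcg plate 2 and 0.088 without Tac1 plate 1, and 0.0020 to 0.13 over 17 alternatives. Cacna1h (Tac1 minus Gcg) gave 0.11 without Gcg plate 1 and 0.13 without Gcg plate 2 and 0.16 without Tac1 plate 1, and 0.013 to 0.80 over 18 alternatives. Cacna1c (Tac1 minus Gcg) gave 0.12 without Tac1 plate 1, and 1.7e-04 to 0.12 over 18 alternatives.

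Somatostatin on the Gip plate came mostly from few cells. Sst stood at 15953 and 9.59 CPM in Tac1, 72315 in Gip and 44.5 and 2827 in Gcg. Its difference of 5.77 ± 1.72 (adjusted p = 0.047) for Gip minus Gcg was lost with RLE factors (adjusted p = 0.11), with DESeq2 (1.0), in granule-rich cells (0.086) and in limma-voom over all conditions (0.12), and ran from 1.3e-17 to 1.0 over 16 alternatives. Iapp stood at 88.9 and 0 CPM in Tac1, 1413 in Gip and 1.17 and 134 in Gcg, a difference of -4.52 ± 0.85 (adjusted p = 9.2e-04) for Tac1 minus Gip. That call was lost with DESeq2 (adjusted p = 0.78) and in limma-voom over all conditions (0.098). It was also lost without cells of at least 100 of 2000 Sst transcripts (0.096). The Gcg plates differed widely in Sst, and without Gcg plate 2 the Gip minus Gcg difference of Sst was 10.65. After thinning, 11 of 63 cells of the Gip plate held at least 259 of 2000 Sst transcripts, and every other cell at most 34 (median 12). These 11 cells held 26.6% of the plate's transcripts but 94.3% of its Sst, 98.2% of Iapp, which encodes islet amyloid polypeptide, 91.2% of Hhex and 78.2% of Ghrl. They also held 96.3% of Asic5, 84.2% of Dlk1 and all of Nptx2, against 27.2% of Rbp4, 7.11% of Gip and 5.75% of Cnr1. Tac1 plate 1 had 3 such cells of 68 (at least 246 Sst transcripts, at most 51 in the others, median 6). With 5.04% of the plate's transcripts these 3 held 78.2% of Sst, all of Iapp, 94.9% of Asic5, 90.2% of Ghrl, 81.8% of Hhex and 66.7% of Rbp4. Those shares describe cells picked by their Sst and carry no test.

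The remaining Sst was spread thinly. At least 5 of 2000 Sst transcripts were found in 48 of 68 cells of Tac1 plate 1 and 60 of 63 of the Gip plate, against 0 of 64 and 2 of 75 of the Gcg plates. Wells of those 2 plates below the minimum held Sst at 12349 CPM (Tac1 plate 1, 28 wells) and 58597 CPM (Gip plate, 33 wells). They held Gip at 97929 CPM on the Gip plate. These are pooled values and do not show how many of the wells held Sst. The source of the low Sst of other cells was not tested, and it is not read as expression. In a selection chosen after seeing the data, without cells of at least 100 Sst transcripts, 1564 genes passed for Tac1 minus Gcg, 679 for Tac1 minus Gip and 499 for Gip minus Gcg. Of the calls among all cells 96.2, 87.4 and 84.6% were kept, for Gip minus Gcg 402 of 475. Among the genes named here, those lost for Gip minus Gcg included Iapp (adjusted p = 0.16), Acsl6 (0.18), Asic5 (0.28), Nptx2 (1.0) and Muc2 (0.053). With all cells those had been 4.52 ± 0.80 (adjusted p = 4.0e-04) for Iapp, 5.54 ± 0.60 (adjusted p = 6.5e-07) for Asic5, at least 20.5-fold for Acsl6 and at least 28.9-fold for Nptx2. Over their alternatives the adjusted p ran from 3.4e-26 to 1.0 for Iapp, 3.3e-35 to 0.63 for Asic5, 7.8e-09 to 0.18 for Acsl6, 4.0e-11 to 1.0 for Nptx2 and 1.2e-10 to 1.0 for Muc2.

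**Figure D4:**
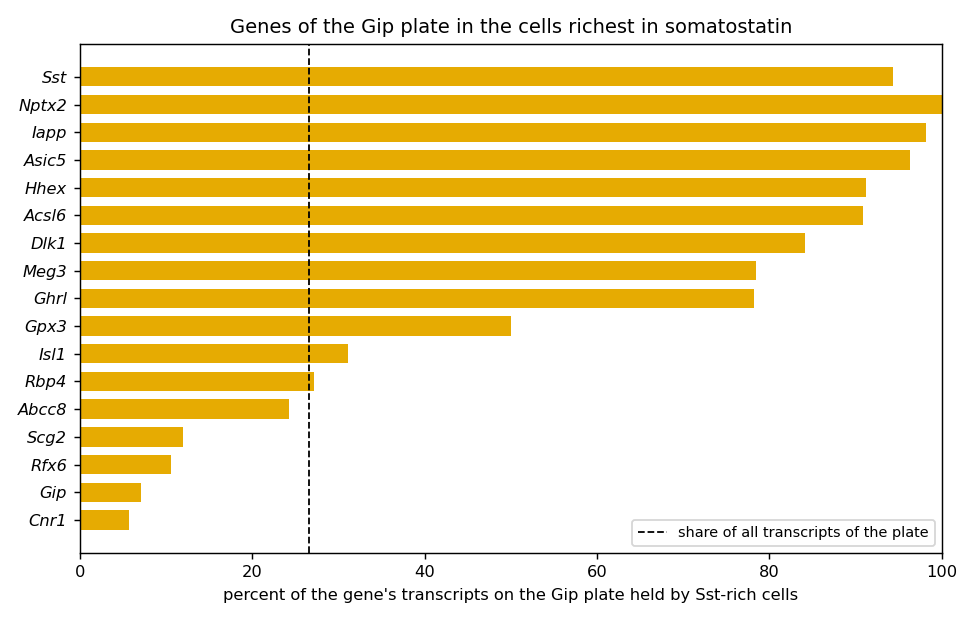
Percent of each gene's transcripts on the Gip plate (horizontal axis) that the 11 Sst-rich cells of 63 held, 1 bar per gene, with a dashed line at their 26.6% of all transcripts. Sst, Iapp, Asic5 and Hhex lie above 90% and Gip and Cnr1 far left of the line.

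Genes higher in the Gip than in the Gcg line outside those cells included Rbp4 and Cnr1. Rbp4, the retinol-binding protein known from K cells, stood at 163 and 0 CPM in Tac1, 2937 in Gip and 60.9 and 56.5 in Gcg (5.69 ± 0.63, adjusted p = 8.4e-07 for Gip minus Gcg and -4.81 ± 0.63, adjusted p = 9.8e-06 for Tac1 minus Gip). Cnr1, the cannabinoid receptor, stood at 30.4 and 0 CPM in Tac1, 319 in Gip and 2.34 and 5.95 in Gcg (6.30 ± 0.60, adjusted p = 1.1e-07 and -3.79 ± 0.56, adjusted p = 5.1e-05). The imprinted gene Dlk1 stood at 34.7 and 0 CPM in Tac1, 928 in Gip and 11.7 and 1.49 in Gcg, and the imprinted RNA Meg3 at 78.1 and 0 CPM in Tac1, 416 in Gip and 8.20 and 0 in Gcg. They were higher in the Gip than in the Gcg line by 7.03 ± 0.59 (adjusted p = 1.7e-08) and 6.49 ± 0.68 (adjusted p = 5.2e-07). Of their Gip-plate transcripts, 84.2 and 78.4% lay in the 11 Sst-rich cells. With DESeq2 neither Rbp4 call passed, nor did the Gip minus Gcg calls of Dlk1 and Meg3, while both Cnr1 calls did.

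Genes that mark position along the gut differed between the lines. Of 10 tested, 1 was higher and 3 lower in the Tac1 than in the Gcg line, 2 higher and none lower than in the Gip line, and 1 higher and 3 lower in the Gip than in the Gcg line (medians -1.15, 0.00 and -0.85). Of these calls 2 of 4, 0 of 2 and 2 of 4 held in every fit without 1 plate that tested them. Onecut2, a proximal-gut factor, stood at 573 and 796 CPM in Tac1 and 572 in Gip, against 69.1 and 60.9 in Gcg, and was higher than in the Gcg line by 3.35 ± 0.39 (adjusted p = 2.8e-07) in Tac1 and by 3.18 ± 0.42 (adjusted p = 9.2e-06) in Gip. Osr2, a zinc finger factor, stood at 30.4 and 19.2 CPM in Tac1 and 0 in Gip, against 125 and 178 in Gcg. It differed from the Gcg line by -2.41 ± 0.46 (adjusted p = 4.0e-04) in Tac1 and was at least 27.0-fold lower in Gip (adjusted p = 5.4e-06), and Tac1 was at least 5.14-fold above Gip (adjusted p = 0.0063). Hoxb9, a posterior Hox gene, had transcripts only on the Gcg plates, 39.8 and 46.1 CPM. That made it at least 8.02-fold lower in Tac1 (adjusted p = 9.9e-04) and at least 7.74-fold lower in Gip (adjusted p = 0.0050). Fabp6, the ileal bile acid binding protein, also had transcripts only on the Gcg plates, 218 and 81.8 CPM, and was at least 29.8-fold lower in Tac1 (adjusted p = 3.9e-06) and at least 28.7-fold lower in Gip (adjusted p = 4.8e-05). Gata4, a proximal factor, stood at 82.4 and 38.4 CPM in Tac1, 99.1 in Gip and 50.4 and 44.6 in Gcg, and passed in no comparison. The labels name the tissue as intestine without a region for each line, so reporter and region cannot be told apart. Of the calls named here, leaving out 1 plate ended these, by adjusted p. Osr2 (Tac1 minus Gip) gave 0.094 without Tac1 plate 1, and 0.0020 to 0.26 over 16 alternatives. Hoxb9 (Tac1 minus Gcg) gave 0.070 without Tac1 plate 1, and 2.4e-05 to 0.070 over 16 alternatives. Hoxb9 (Gip minus Gcg) gave 0.16 without Gcg plate 1 and 0.12 without Gcg plate 2, and 3.0e-05 to 0.18 over 14 alternatives.

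The Gcg line held more transcripts of absorptive cells. All 15 enterocyte genes were tested, and 14 were lower and none higher in the Tac1 than in the Gcg line, 4 lower than in the Gip line, and 9 lower in the Gip than in the Gcg line. The list's medians were -6.28, -2.37 and -4.46, or -5.37, -1.35 and -4.46 with genes at 0 set to their bound. Of these calls 11 of 14, 3 of 4 and 7 of 9 held in every fit without 1 plate that tested them. Summed, the list reached 1878 and 1161 CPM on the Tac1 plates and 10639 CPM on the Gip plate, against 30280 and 22678 CPM on the Gcg plates. Apoa1, a lipoprotein of absorptive cells, stood at 6.51 and 9.59 CPM in Tac1 and 11.0 in Gip, against 2896 and 983 in Gcg (-8.03 ± 0.73, adjusted p = 5.3e-09 for Tac1 minus Gcg and -7.41 ± 0.87, adjusted p = 1.6e-06 for Gip minus Gcg). Fabp2, a fatty acid binding protein, stood at 10.8 and 19.2 CPM in Tac1 and 16.5 in Gip, against 1875 and 1325 in Gcg (-6.93 ± 0.58, adjusted p = 1.4e-09 and -6.54 ± 0.70, adjusted p = 6.2e-07). Apoa4 had no transcript on the Tac1 plates. Per cell the list held a median of 2 and 1 of 2000 transcripts on the Tac1 plates, 15 on the Gip plate, and 28 and 31 on the Gcg plates. A further comparison, chosen after seeing the data, used hormone-rich cells. These held more hormone and granule transcripts than enterocyte, goblet and Paneth transcripts together. It kept every Tac1 and Gip cell, but 50 of 64 and 67 of 75 Gcg cells. Among them 8 of 14 tested enterocyte genes were lower in Tac1 than in Gcg, and for Gip minus Gcg 2 were higher and 4 lower. Enterocyte transcripts entered the choice of cells, so these smaller counts were partly fixed in advance. The part of enterocyte RNA in the other differences was not tested.

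Krt20, Fap, Cyp2c29 and Guca2a, on no list, were lower in both other lines than in the Gcg line. Krt20, a keratin of differentiated epithelium, stood at 108 and 19.2 CPM in Tac1 and 0 in Gip, against 1654 and 1892 in Gcg (-4.45 ± 0.51, adjusted p = 2.3e-07 for Tac1 minus Gcg, and at least 319.6-fold lower in Gip than in Gcg, adjusted p = 3.6e-07). Fap, a serine protease, had transcripts only on the Gcg plates, 823 and 1155 CPM, so Tac1 was at least 183-fold and Gip at least 176-fold lower. Cyp2c29, a cytochrome P450, stood at 0 and 0 CPM in Tac1 and 9.17 in Gip, against 3086 and 2332 in Gcg (at least 519-fold lower in Tac1, adjusted p = 3.7e-10; -8.13 ± 0.83, adjusted p = 5.2e-07 for Gip minus Gcg). Guca2a, which encodes guanylin, had transcripts only on the Gcg plates, 765 and 161 CPM, and was at least 94.0-fold lower in Tac1 and at least 90.6-fold lower in Gip. With DESeq2 neither Guca2a call passed.

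Goblet genes were mostly lower in the Tac1 than in the Gcg line. Of 8 tested, 6 were lower in the Tac1 than in the Gcg line, 5 lower than in the Gip line and 2 lower in the Gip than in the Gcg line, with none higher (medians -5.60, -3.22 and -1.24). Of these calls 6 of 6, 2 of 5 and 1 of 2 held in every fit without 1 plate that tested them. Summed, the list reached 1997 and 2820.4 CPM on the Tac1 plates, 2818 CPM on the Gip plate, and 12858 and 2762 CPM on the Gcg plates, highest on Gcg plate 1. Muc2, the main intestinal mucin, stood at 17.3 and 0 CPM in Tac1 and 167 in Gip, against 1240.5 and 358 in Gcg, with -2.24 ± 0.61 (adjusted p = 0.026) for Gip minus Gcg. Tff3, the trefoil factor of goblet cells, stood at 1915 and 2705 CPM in Tac1, 1433 in Gip and 3007 and 925 in Gcg, and passed in no comparison. A goblet sum of 100 or more of 2000 transcripts was found in 0 and 0 cells of the Tac1 plates, 1 of the Gip plate, and 4 and 3 of the Gcg plates. Among the hormone-rich cells chosen above, 5 goblet genes were higher and 1 lower for Gip minus Gcg. Goblet transcripts entered that choice, which dropped cells of the Gcg plates alone. The changed direction of this list was thus partly set by the selection and is not read as a result. Without 1 plate, 1 of the adjusted p-values printed here exceeded 0.05: Muc2 (Gip minus Gcg) gave 0.58 without Gcg plate 1, and 1.2e-10 to 1.0 over 15 alternatives.

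**Figure D5:**
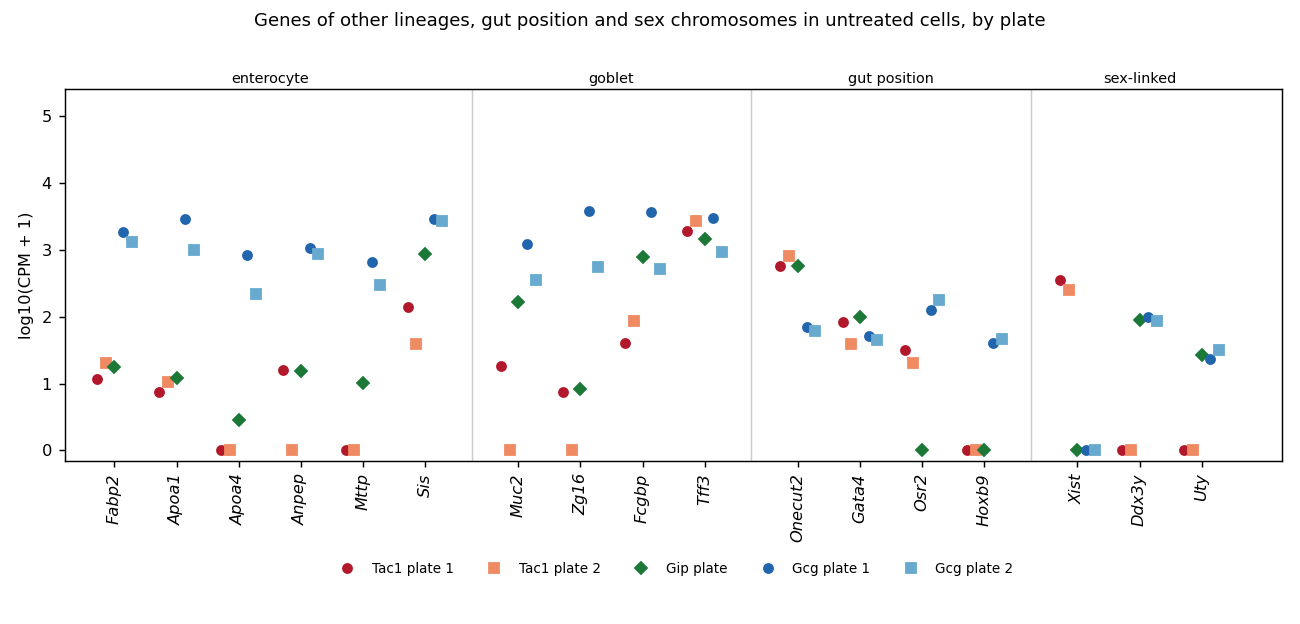
Level of enterocyte, goblet, gut position and sex-linked genes by plate in untreated cells, as log10(CPM + 1), 1 symbol per plate (Tac1 red, Gip green, Gcg blue; a symbol at 0 is a gene with no transcript). The enterocyte genes are highest on the Gcg plates, and Xist is present on the Tac1 plates alone.

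Other lineages gave few calls. Of 2 Paneth genes tested, Lyz1, the lysozyme gene, stood at 8.67 and 0 CPM in Tac1, 191 in Gip and 10.5 and 38.7 in Gcg. It was lower in the Tac1 than in the Gip line (-4.76 ± 0.74, adjusted p = 8.4e-05) and higher in the Gip than in the Gcg line (3.06 ± 0.52, adjusted p = 2.6e-04). The list's medians were -1.35, -3.23 and 1.87. None of 3 tuft genes passed in any comparison (medians 0.95, 6.63 and -5.68, or 0.95, 2.27 and -1.10 at their bounds), nor did any of 4 proliferation genes (-0.54, 1.13 and -1.97). Of 4 crypt and stem genes, Cd44 was higher and Slc12a2 lower in the Tac1 than in the Gcg line, Slc12a2 lower than in the Gip line and Cd44 higher in the Gip than in the Gcg line (medians -0.96, -1.50 and 0.57). Cd44, a surface glycoprotein, stood at 536 and 239.8 CPM in Tac1, 936 in Gip and 69.1 and 77.3 in Gcg (2.50 ± 0.41, adjusted p = 6.0e-05 for Tac1 minus Gcg and 3.73 ± 0.45, adjusted p = 3.1e-06 for Gip minus Gcg). Of 4 villus tip genes only Egfr, the EGF receptor, passed (medians -0.06, 0.82 and -1.53). It was higher in Tac1 than in Gip (4.84 ± 1.01, adjusted p = 0.0026) and lower in Gip than in Gcg (-4.02 ± 1.03, adjusted p = 0.016). Named calls that did not hold without 1 plate follow, with the adjusted p. Slc12a2 (Tac1 minus Gcg) gave 0.23 without Gcg plate 1 and 0.12 without Tac1 plate 1, and 6.8e-05 to 0.41 over 16 alternatives. Slc12a2 (Tac1 minus Gip) gave 0.079 without Gcg plate 1 and 0.19 without Tac1 plate 1, and 0.0029 to 0.20 over 14 alternatives. Egfr (Tac1 minus Gip) gave 0.063 without Tac1 plate 1, and 7.6e-05 to 0.10 over 14 alternatives. Egfr (Gip minus Gcg) gave 0.11 without Gcg plate 2, and 0.0036 to 0.40 over 14 alternatives.

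Immediate early genes were higher in the Tac1 line. Of 8 tested, 6 were higher and none lower than in the Gcg line, 3 higher than in the Gip line, and 1 higher in the Gip than in the Gcg line (medians 1.88, 1.38 and 0.27). Of these calls 4 of 6, 2 of 3 and 0 of 1 held in every fit without 1 plate that tested them. These genes are switched on quickly by many stimuli. Atf3 stood at 672 and 787 CPM in Tac1, against 178 in Gip and 123 and 90.7 in Gcg. It differed by 2.74 ± 0.37 (adjusted p = 3.5e-06) from the Gcg and by 1.96 ± 0.47 (adjusted p = 0.0076) from the Gip line. Jun stood at 1587 and 2379 CPM in Tac1, against 721 in Gip and 231 and 269 in Gcg. It differed by 2.96 ± 0.42 (adjusted p = 6.7e-06) from the Gcg line, and by 1.59 ± 0.46 (adjusted p = 0.041) for Gip minus Gcg. Of 12 genes of the unfolded protein response, Ddit3, Herpud1 and Sdf2l1 were higher in the Tac1 than in the Gcg line, and Dnajb9 was lower in the Tac1 than in the Gip line and higher in the Gip than in the Gcg line (medians 0.02, -0.52 and 0.63). Of these calls 0 of 3, 0 of 1 and 0 of 1 held in every fit without 1 plate that tested them. Of 6 interferon and antigen presentation genes, H2-D1 was higher in the Tac1 line than in each other line, at 367 and 326 CPM in Tac1, against 75.2 in Gip and 59.7 and 59.5 in Gcg (2.55 ± 0.35, adjusted p = 4.5e-06 and 2.17 ± 0.45, adjusted p = 0.0025). B2m, its light chain, went the other way, at 108 and 95.9 CPM in Tac1, 174 in Gip and 696 and 389 in Gcg. It differed by -2.38 ± 0.41 (adjusted p = 1.0e-04) for Tac1 minus Gcg. For Gip minus Gcg it differed by -1.60 ± 0.47 (adjusted p = 0.044), which turned to 0.08 among granule-rich cells. Those were 26 of 63 cells of the Gip plate and 8 of 64 and 16 of 75 of the Gcg plates. The list's medians were 0.64, 0.47 and 0.04. Of 5 nuclear RNAs, Meg3 and Snhg11 were higher in the Tac1 than in the Gcg line, and Meg3 was lower than in the Gip line and higher in the Gip than in the Gcg line (medians 1.23, 1.28 and -0.06). Without Tac1 plate 1 the Tac1 minus Gcg difference of Meg3 turned to -4.37. That value comes from 0 Meg3 transcripts on Tac1 plate 2 and is not read as an opposite difference. Malat1, at 12496 and 7953 CPM in Tac1, 5749.7 in Gip and 4643 and 4116 in Gcg, passed in none. Calls named here that were lost without 1 plate follow, with the adjusted p for each. Jun (Gip minus Gcg) gave 0.17 without Gcg plate 1 and 0.095 without Gcg plate 2, and 2.8e-04 to 0.17 over 16 alternatives. Ddit3 (Tac1 minus Gcg) gave 0.11 without Gcg plate 1 and 0.076 without Gcg plate 2 and 0.055 without Tac1 plate 1, and 0.0012 to 0.55 over 16 alternatives. Herpud1 (Tac1 minus Gcg) gave 0.20 without Gcg plate 1 and 0.054 without Gcg plate 2 and 0.14 without Tac1 plate 1, and 9.4e-04 to 0.40 over 18 alternatives. Sdf2l1 (Tac1 minus Gcg) gave 0.084 without Gcg plate 1 and 0.11 without Gcg plate 2 and 0.12 without Tac1 plate 1, and 0.012 to 0.17 over 16 alternatives. Dnajb9 (Tac1 minus Gip) gave 0.086 without Tac1 plate 1, and 2.2e-04 to 0.094 over 16 alternatives. Dnajb9 (Gip minus Gcg) gave 0.43 without Gcg plate 1 and 0.24 without Gcg plate 2, and 0.0018 to 0.95 over 16 alternatives. B2m (Gip minus Gcg) gave 0.48 without Gcg plate 1, and 0.0026 to 0.99 over 16 alternatives. Meg3 (Tac1 minus Gcg) gave 0.59 without Tac1 plate 1, and 1.8e-07 to 0.80 over 16 alternatives. Snhg11 (Tac1 minus Gcg) gave 0.16 without Gcg plate 1, and 1.6e-04 to 0.72 over 12 alternatives.

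Genes of the BMP pathway gave few calls. BMP is a secreted signal that is strongest toward the villus tip. Of 8 receptors and Smads tested, none passed in any comparison (medians -0.34, -0.42 and -0.02). Of 5 target genes Tgif1, a repressor in the SMAD pathway, was higher in the Tac1 than in the Gcg line (2.11 ± 0.49, adjusted p = 0.0028). Bambi, a decoy receptor, was lower in the Tac1 than in the Gip line (-2.34 ± 0.64, adjusted p = 0.023). Both were higher in the Gip than in the Gcg line (2.00 ± 0.54, adjusted p = 0.025 and 1.90 ± 0.52, adjusted p = 0.029). The medians were 0.00, 0.11 and 0.87. Id2 and Id3, direct targets of BMP signalling, passed in none. Of the calls named here, leaving out 1 plate ended these, by adjusted p. Tgif1 (Tac1 minus Gcg) gave 0.43 without Tac1 plate 1, and 1.9e-04 to 0.43 over 18 alternatives. Bambi (Tac1 minus Gip) gave 0.096 without Tac1 plate 1, and 2.0e-04 to 0.38 over 15 alternatives. Tgif1 (Gip minus Gcg) gave 0.18 without Gcg plate 1 and 0.11 without Gcg plate 2, and 0.0039 to 0.59 over 16 alternatives. Bambi (Gip minus Gcg) gave 0.40 without Gcg plate 1 and 0.12 without Gcg plate 2, and 0.0087 to 0.92 over 15 alternatives.

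Some differences ran with the source animal or the kind of file. Xist, the RNA of the inactive X chromosome, stood at 356 and 249 CPM on the Tac1 plates and was at 0 on the other 3, at least 171-fold above the Gcg line (adjusted p = 2.8e-10) and at least 61.1-fold above the Gip line (adjusted p = 5.6e-07). The Y-linked Ddx3y had no transcript on the Tac1 plates, 89.9 CPM on the Gip plate, and 99.6 and 86.2 CPM on the Gcg plates, at least 17.7-fold lower in Tac1 than in Gcg (adjusted p = 4.9e-06) and at least 16.9-fold lower than in Gip (adjusted p = 5.6e-05). Uty, also Y-linked, followed it, at 0, 0, 25.7, 22.3 and 31.2 CPM over the Tac1, Gip and Gcg plates (adjusted p = 0.0068 for Tac1 minus Gcg, and adjusted p = 0.026 for Tac1 minus Gip). These 3 were all that could be tested of 5 sex-linked genes, with medians of -6.79, -6.80 and 0.00, or -2.30, -2.28 and 0.00 at their bounds. The Tac1 organoids thus carried the RNA pattern of a female mouse and the others that of a male, so sex and reporter cannot be told apart in comparisons with Tac1. Leaving out 1 plate ended the following named calls, with these adjusted p-values. Uty (Tac1 minus Gcg) gave 0.094 without Gcg plate 2 and 0.15 without Tac1 plate 1, and 0.0010 to 0.15 over 17 alternatives. Uty (Tac1 minus Gip) gave 0.083 without Gcg plate 1 and 0.12 without Gcg plate 2 and 0.20 without Tac1 plate 1, and 0.0079 to 0.36 over 14 alternatives.

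Genes at 0 on all plates of 1 kind of file need the same care. Among called genes of Tac1 minus Gcg, 28 had no count on the Gcg plates and 137 none on the Tac1 plates. For Tac1 minus Gip those numbers were 59 with none on the Gip plate and 33 with none on the Tac1 plates, and for Gip minus Gcg, within 1 kind of file, 14 with none on the Gcg plates and 64 with none on the Gip plate. Hnrnpa1, a splicing factor used by all cells, is listed at 0 on both Tac1 plates, against 44.0 CPM on the Gip plate and 37.5 and 37.2 CPM on the Gcg plates. Over all wells of all plates it summed to 1 transcript in the 5 files with 2 decimals and 239 in the 3 files of full precision. Clstn1, a synaptic adhesion protein, summed to 9 and 892, Kcnj3, a potassium channel, to 8 and 635, Cacna1c to 11 and 426, and Agr2, a goblet and secretory cell isomerase, to 26 and 1467 in the same order. For such genes a difference between kinds of file and one between lines cannot be told apart. The labels do not state the counting rules of either kind.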

How the data were processed

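Single cells were sequenced by SORT-seq, a plate version of CEL-seq2 with 1 cell per well, on a NextSeq500 with paired 75 bp reads, per the labels. The submitters' processing notes name BWA 0.6.2-r126 and mm10, and the counting tool is not given in the sources used here. Values deposited by the authors are expected counts, estimated transcript numbers per gene and well after correction for molecular barcodes, which are not whole. Wells with at least 2000 transcripts were summed per plate over 16115 genes that both kinds of file list (98.1 to 98.7% of transcripts), and the sums were rounded to whole numbers. The members and gene lists were chosen with earlier results of these data known.

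The 5 plate sums were fitted with edgeR 4.0.16 in R 4.3.3 (TMM normalization, low-count filter, quasi-likelihood F test, Benjamini-Hochberg adjustment at 0.05) with 1 mean per line. At an unadjusted p under 0.05, 2593 genes passed for Tac1 minus Gcg, 1819 for Tac1 minus Gip and 1357 for Gip minus Gcg. Alternatives used DESeq2 1.42.0, limma 3.58.1 and the settings in the closing section. In simulated data, 50 genes per fold were changed, drawn only from genes above a set expected count. Their spread followed the trend over genes, without scatter of single genes. Of genes changed 4-fold and 8-fold, 78% and 92% were recovered for Tac1 minus Gcg in a fit of 8346 genes. For Gip minus Gcg 72% and 96% were recovered in a fit of 8665 genes. These rates do not cover genes with fewer transcripts. Of genes changed 2-fold, 14% were recovered for Tac1 minus Gcg and 10% for Gip minus Gcg. A gene that did not pass can therefore still differ by that much. Tac1 minus Gip was not simulated. For shares, each cell was thinned to 2000 transcripts and given a Wilson 95% interval. A gene at 0 was bounded at 3 transcripts over the line. Intervals and bounds cover counting error only. No doublet caller was run on these sorted cells.

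Genes named are the 10 with the largest differences each way per comparison (average log2 CPM of at least 5, no overlap between lines, no predicted or ribosomal genes), all hormone and sex-linked genes, and up to 4 per other list by smallest p. Of 246 listed genes in 24 lists, 232 are in both kinds of file. Other list members, and the genes given with totals per kind of file, were named after their values were seen. Promoter windows came from RefSeq on GRCm38.p6. A few listed genes enter the counts and sums but are not reported here by name.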

Additional observations from a re-analysis of the deposited data

Results flagged for a closer look

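Mitochondrial transcripts were set aside and enter no comparison. They made up 6.06% of the transcripts of kept untreated cells on Tac1 plate 1 and 4.88% on Tac1 plate 2. Only the files of the Tac1 plates list mitochondrial genes, so no value for the Gip or Gcg plates can be set beside these shares.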

How the results depend on the processing

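The counts of called genes depended on the model and the cells. DESeq2 called 672 genes for Tac1 minus Gcg, 240 for Tac1 minus Gip, 157 for Gip minus Gcg and 710 for any difference. Of 229 named calls 149 passed with DESeq2, and all 229 kept their direction. Calls it lost that are not marked above included those of Fabp6, Scg2 and Abcc8, and Slc5a1 for Tac1 minus Gip. With cells thinned to 2000 transcripts the counts were 629, 327, 215 and 730, and with granule-rich cells 591, 416, 122 and 661. A limma-voom fit over all conditions with plate as a random effect called 326 for Tac1 minus Gip and 179 for Gip minus Gcg. Leaving out each plate gave 796 to 1478, 462 to 675, 241 to 745 and 989 to 1706. Plates with the same number did not deviate together (correlation -0.0402 over 7701 genes), and the fit with the plate number as a block called 1407 for Tac1 minus Gcg. Of the named calls, 50 of 100, 26 of 69 and 15 of 60 held in every alternative. The percent of calls that were higher moved from 53.5 to 73.3 for Tac1 minus Gip with DESeq2, from 46.6 to 57.9 for Tac1 minus Gcg with limma-voom and 58.9 with granule-rich cells, and from 39.8 for Gip minus Gcg to 57.9 with limma-voom, 77.7 with that fit over all conditions, 59.8 with granule-rich and 55.2 with hormone-rich cells. Shares of cells moved with thinning and cutoff. Cells with Tac1 were 73.5% without thinning, 83.8% at 1 transcript and 2.94% at 20 on Tac1 plate 1, and 75% and 0% at 1 and 20 on plate 2. In the same order the share with Gcg on Gcg plate 1 was 98.4, 96.9 and 53.1%, while plate 2 gave 100, 100 and 69.3%. Cells led by the reporter hormone were 2.94% and 0% at 20 on the Tac1 plates, 57.8% without thinning on Gcg plate 1 and 57.3% at 20 on plate 2. Differences that turned were, for Tac1 minus Gcg, Meg3 (-4.37 to 7.69 with 1 plate left out), Cnr1 (-3.56 in reporter-hormone cells, and -4.17 to 3.16 with 1 plate left out), Hhex (-4.48 and -4.58 to 7.11 likewise), Asic5 (-5.25 and -5.93 to 3.37) and Maoa (0.18 in granule-rich cells). For Tac1 minus Gip they were Spink4 (1.34) and Fcgbp (0.66), both in granule-rich cells. For Gip minus Gcg they were Muc2 (1.46 in hormone-rich cells) and B2m (0.082 in granule-rich, 0.18 in hormone-rich cells). The cause was not tested. Meg3, Cnr1 and Hhex had no transcript on Tac1 plate 2, so their negative values without Tac1 plate 1 are not read as opposite differences. The hormone-rich and reporter-hormone selections and the one by Sst were chosen after seeing the data. The granule-rich and hormone-rich selections dropped cells by their enterocyte, goblet and Paneth transcripts. Muc2, Spink4 and Fcgbp are on the goblet list, so their changes there were partly fixed by the choice of cells. Tac1 plate 2, with 16 cells, limits what low genes can show in that line.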
